A study of Homo sapiens with 18 samples.

Results

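The response described here is the combined change on inducing estrogen receptor beta (ERβ) with doxycycline and giving it its hormone. It sets U2OS cells with an ERβ vector, doxycycline and E2 (called liganded cells below) against the same line without doxycycline (uninduced cells). The members are the arrays of those 2 groups, 3 in each, so 6 of the 18 arrays of the series. U2OS is a human osteosarcoma line, and it was stably transfected with a doxycycline-inducible vector for ERβ or, in a separate line, for ERα. E2 is the usual short name of estradiol. Another group used here is the ERβ line with doxycycline alone (induced cells). The ERα line is used with doxycycline plus E2, with doxycycline alone and without doxycycline. Every group carries a stably integrated vector, whose promoter is not specified in the labels, and the labels do not say whether a line is 1 clone. Doses and treatment times are not given in the sources used here. Nothing in the labels states whether the 3 arrays per group come from independent cultures. The p-values therefore reflect array-to-array spread alone, and that spread may be technical.

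ERβ, encoded by ESR2, is a nuclear receptor. When it binds E2 it attaches to DNA at estrogen response elements, or to other transcription factors such as AP-1, and raises or lowers transcription of nearby genes. ERα, encoded by ESR1, binds a very similar element and the same hormone, and both receptors are found in bone. In a doxycycline-inducible line the drug switches the vector on, so the comparison of liganded with uninduced cells adds 2 steps, receptor induction and hormone. No cells without a receptor vector were given doxycycline or E2, so effects of these agents on the cells themselves and effects through the receptor cannot be told apart here.

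Total RNA was hybridized to single-colour Illumina arrays. Levels are normalized log2 signals, on which 1 unit is a 2-fold difference in signal, and a difference between groups is a log2 change ± its standard error (SE) over 3 arrays a group. The lowest detected level lay between 6.08 and 6.52 across arrays, and 13505 genes had a probe detected on at least 3 of the 18 arrays. A gene is said to have risen or fallen where the adjusted p from limma, over all 13505 genes, was below 0.05. Of the markers of the osteoblast lineage and mesenchyme, RUNX2, COL1A1, SPARC, VIM, CDH2, ALPL and BGLAP were detected on all 6 arrays, while SP7, IBSP and COL1A2 were detected on none. PTPRC, CD3E and HBB of blood cells and CDH5 and KDR of endothelium were likewise detected on 0 of the 6 arrays. The endothelial markers PECAM1 and VWF were detected on all 6, and CD14 of blood cells on 1 liganded array. Within groups, the correlation between arrays over all genes was 0.984 to 0.994. Between 19834 and 22485 probes were detected per array. The number of arrays limits the precision, and the median SE of a log2 change was 0.139.

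ESR2 was examined first, because it checks the labels. Its probe stood at 16.03, 16.05 and 16.03 in liganded cells, at 15.98, 16.05 and 15.79 in induced cells and at 11.39, 11.29 and 11.10 in uninduced cells. Liganded and induced cells were both far above uninduced cells, and uninduced cells were themselves well inside the detected range. The comparison thus starts from cells that already had ESR2 signal. The total change was 4.78 ± 0.22 (27.4-fold, adjusted p = 2.59e-10). In liganded cells the probe reached 93.0% of the brightest raw signal, close to the upper end of the range, and a second ESR2 probe, at 79.6% of the brightest, gave 59.2-fold. That second probe stood at 15.85, 15.79 and 15.70 in liganded cells and at 15.51, 15.68 and 15.13 in induced cells, without overlap, whereas on the first probe these groups overlapped. In the ERα line without doxycycline the first probe was detected on no array, at a level of 5.37. The ESR1 probe was detected on no array of the ERβ line. In the ERα line it averaged 6.34 in the group given E2, 5.76 in the drug-only group and 6.22 without the drug. It was detected there on 2, 0 and 1 arrays, near or below the limit of detection. The probe thus showed no clear rise of ERα in its own line, and its absence in the ERβ line is no check of ERα. Induction of ERα could therefore not be checked as for ESR2. PGR and TFF1, well-known estrogen targets of breast cells, were detected on no array at all.

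The full response reached a large share of the measured genes. In all, 5106 of 13505 genes, or 37.8%, differed between liganded and uninduced cells, 2164 of them higher (16.0%) and 2942 lower (21.8%). Rises were fewer but larger: 816 genes rose at least 2-fold (6.04%) and 475 fell at least 2-fold (3.52%), 307 rose and 68 fell at least 4-fold, and 54 rose and 0 fell at least 16-fold. The median change of all genes was -0.07. The arrays of the 2 groups did not overlap for 6636 genes, or 49.1%, so absence of overlap was common in this comparison.

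Many of these changes went from undetected to detected. A total of 237 genes were detected on 0 uninduced arrays and on all 3 liganded arrays, and 81 showed the opposite. Of the 237, 87 were also detected on all 3 induced arrays and 62 on none of them. For a gene that was undetected in a whole group, the fold below is a lower bound, set from the lowest detected signal of each array and written as "at least". In RNA from whole cultures, a change in the number of cells that express a gene and a change in RNA per cell cannot be told apart.

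The gene with the largest rise was MSMB, which encodes microseminoprotein beta, a protein secreted by the prostate and other mucosal epithelia. MSMB stood at 14.64, 14.71 and 14.77 in liganded cells, at 14.55, 14.74 and 14.38 in induced cells and at 4.62, 5.17 and 4.86 in uninduced cells. It was undetected on every uninduced array and among the brighter genes on every array with doxycycline. The rise was at least 314-fold (fitted 9.82 ± 0.16, adjusted p = 4.16e-15). The same gene rose at least 60.3-fold in the ERα line.

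KRT19, a keratin of simple epithelia and a well-known estrogen target, came next. Its levels were 13.55, 13.49 and 13.50 in liganded cells, 9.97, 9.05 and 10.52 in induced cells and 4.94, 5.14 and 4.76 in uninduced cells. The 3 groups did not overlap, and induced cells varied most, with an SD of 0.74. The rise was at least 137-fold (8.57 ± 0.26, adjusted p = 2.93e-12).

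CST5 and CST1, the next in size, both encode secreted cystatins, inhibitors of cysteine proteases. CST5 stood at 13.55, 13.64 and 13.61 in liganded cells, at 11.09, 11.34 and 11.03 in induced cells and at 5.27, 6.29 and 6.40 in uninduced cells, of which 1 array detected it. CST1 stood at 12.48, 12.64 and 12.60 in liganded cells, at 10.87, 11.61 and 10.63 in induced cells and at 5.53, 5.34 and 5.06 in uninduced cells. For both genes the order of the groups was the same and no group overlapped another. The rises were 7.61 ± 0.24 for CST5 (adjusted p = 4.45e-12) and at least 71.8-fold for CST1 (7.27 ± 0.21, adjusted p = 1.22e-12).

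The other 11 of the 15 largest rises lay between 5.33 and 6.42 on the log2 scale. OTOF encodes otoferlin, a calcium sensor of membrane fusion, and rose by 6.42 ± 0.12. CCN5, a matricellular protein known as an estrogen target, rose at least 43.2-fold. F13A1, the A subunit of coagulation factor XIII, rose at least 56.0-fold. The hair-follicle keratins KRT72 and KRT73 rose at least 44.9-fold and at least 29.8-fold. PADI4, which converts arginine to citrulline in proteins, rose at least 34.3-fold, and SLC47A2, a transporter of organic cations, at least 25.8-fold. PDK4, a kinase that restrains pyruvate oxidation, was detected in uninduced cells and rose 45.2-fold. TAS1R1, PTGER3 and CMKLR1 are G-protein-coupled receptors, for umami taste, prostaglandin E2 and chemerin, and rose at least 23.7-fold, at least 16.3-fold and at least 24.7-fold.

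The falls were smaller. GABRR1, a subunit of a GABA-gated chloride channel, had the largest, with 8.89, 8.81 and 8.86 in liganded cells, 9.43, 9.77 and 8.57 in induced cells and 12.75, 12.76 and 12.63 in uninduced cells. All 6 arrays with doxycycline lay below all 3 without it, and the fall was 14.5-fold (-3.86 ± 0.21, adjusted p = 1.40e-09). ADAMTS20, a secreted metalloprotease, had 5.85, 6.33 and 6.14 in liganded cells, 6.66, 7.06 and 6.42 in induced cells and 10.12, 9.89 and 9.74 in uninduced cells. It was undetected in liganded cells, and the fall was at least 11.7-fold (adjusted p = 1.91e-10).

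IL6, the inflammatory cytokine interleukin 6, stood at 7.90, 7.85 and 7.73 in liganded cells, at 9.84, 10.05 and 9.06 in induced cells and at 11.31, 10.84 and 11.11 in uninduced cells. The 3 groups did not overlap, and IL6 fell 9.58-fold (-3.26 ± 0.20, adjusted p = 6.83e-09). The remaining 12 of the 15 largest falls lay between -3.65 and -2.82. Among them were TGFB2, a growth factor of the TGF-beta family (at least 6.21-fold), the inhibitory SMAD6 (7.48-fold), the BMP antagonist NOG (7.29-fold), and INHBE, an activin subunit (7.04-fold). TNFRSF11B, which encodes osteoprotegerin, the decoy receptor that restrains osteoclasts, fell 7.37-fold.

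**Figure D1:**
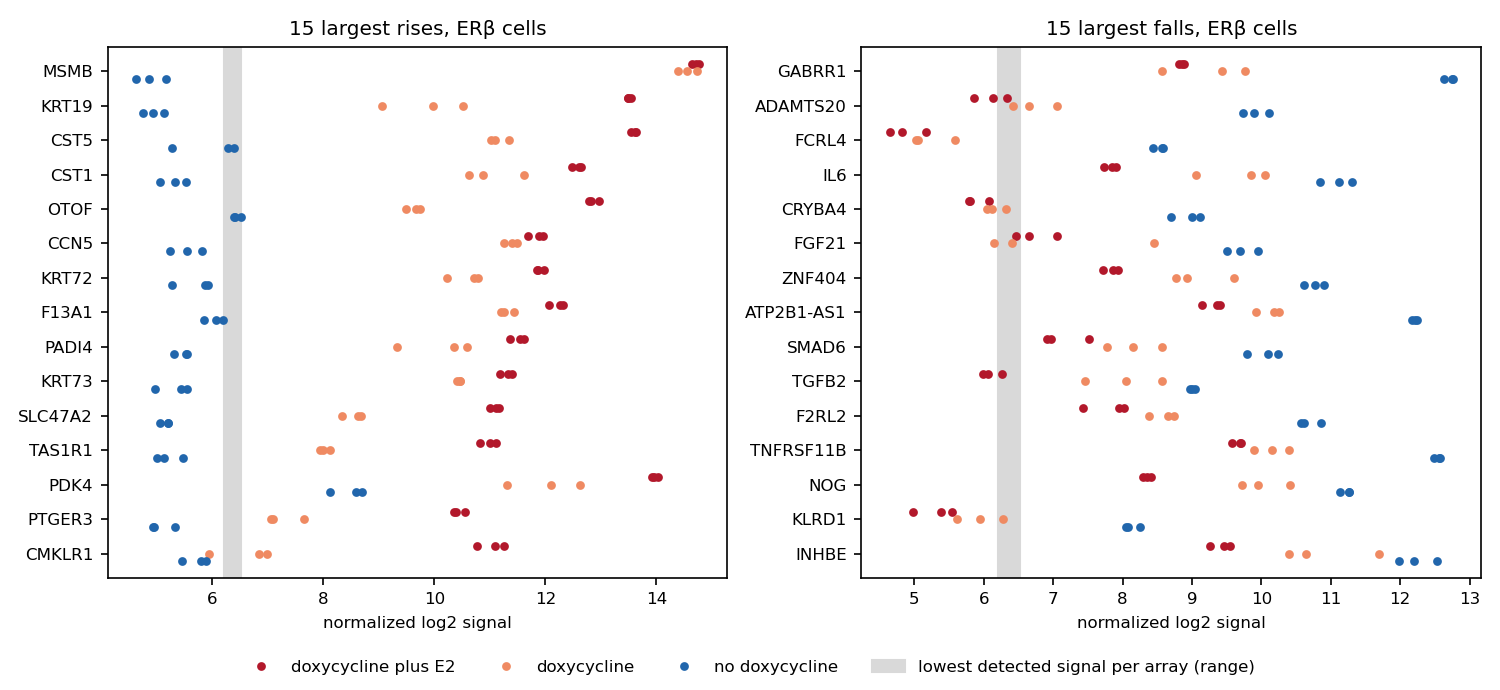
Normalized log2 signals (horizontal axes) on each array of the ERβ line for the 15 largest rises (left) and 15 largest falls (right), with doxycycline plus E2, doxycycline and no doxycycline as 3 colours; the grey band is the range of the lowest detected signal per array. Most rises start below the band without doxycycline, while most falls stay above it in cells with doxycycline plus E2.

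The array values of the 30 genes at the extremes show how the response was divided between the 2 steps. In MSMB the doxycycline step was at least 283-fold and the total at least 314-fold, and in GABRR1 the step was -3.45 and the total -3.86. CMKLR1 had its larger step with E2, with 6.84, 5.95 and 6.99 in induced cells against 11.09, 10.78 and 11.25 in liganded cells.

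To see which part of the total came with each agent, induced cells were set between the other groups. With doxycycline alone 1337 genes rose (9.90%) and 1439 fell (10.7%), and on addition of E2 943 rose (6.98%) and 924 fell (6.84%). The 2 steps add up to the total by construction and share its arrays, so their values are given side by side and are no separate evidence. The genes named by rule fall into 4 patterns of calls.

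MSMB, ESR2, TGM2, MAP7D2, S100A9 and KLRC3 passed the test in the doxycycline step and not in the E2 step, ESR2 by the probe near the upper end of the range. TGM2, a transglutaminase that crosslinks proteins, changed by 4.88 ± 0.12 with doxycycline, and its E2 step was -0.30 ± 0.12 (adjusted p = 0.12). MAP7D2, a microtubule-associated protein, had 10.17, 10.09 and 9.87 in liganded cells, 10.33, 10.05 and 10.51 in induced cells and 5.39, 5.0 and 5.08 in uninduced cells, so the groups with doxycycline overlapped. Its total rise was at least 12.4-fold.

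PLA2G4D, CYP1A2, MYOT, MANEAL, PKD2L1 and TCF21 passed in the E2 step and not in the doxycycline step. PLA2G4D, a phospholipase that releases fatty acids from membranes, stood at 9.48, 9.34 and 10.01 in liganded cells, at 5.0, 5.39 and 5.43 in induced cells and at 5.14, 5.44 and 5.66 in uninduced cells. Both groups without E2 were undetected and overlapped, and the total rise was at least 9.16-fold (adjusted p = 5.22e-09). CYP1A2, a cytochrome P450 that hydroxylates estrogens in liver, rose at least 5.78-fold in the total, with a doxycycline step of 0.37 ± 0.25 (adjusted p = 0.34).

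In KRT19, CST5, CST1, OTOF, CCN5 and KRT72 both steps passed in one direction. OTOF divided almost evenly, 3.19 ± 0.12 with doxycycline and 3.23 ± 0.12 with E2, whereas the E2 step of CCN5 was 0.46 ± 0.14. In TRIM47, CDK5R1, IVL, CRCT1, FZD4 and CX3CL1 the steps were called in opposite directions. CDK5R1, the activator of the kinase CDK5, changed by 2.54 ± 0.13 with doxycycline and by -1.35 ± 0.13 with E2, and its total rise was 1.19 ± 0.13. FZD4, a receptor for Wnt proteins, had a total rise of 0.59 ± 0.11, made of 1.69 ± 0.11 with doxycycline and -1.10 ± 0.11 with E2. The totals of TRIM47, IVL, CRCT1 and CX3CL1 did not pass the test.

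**Figure D2:**
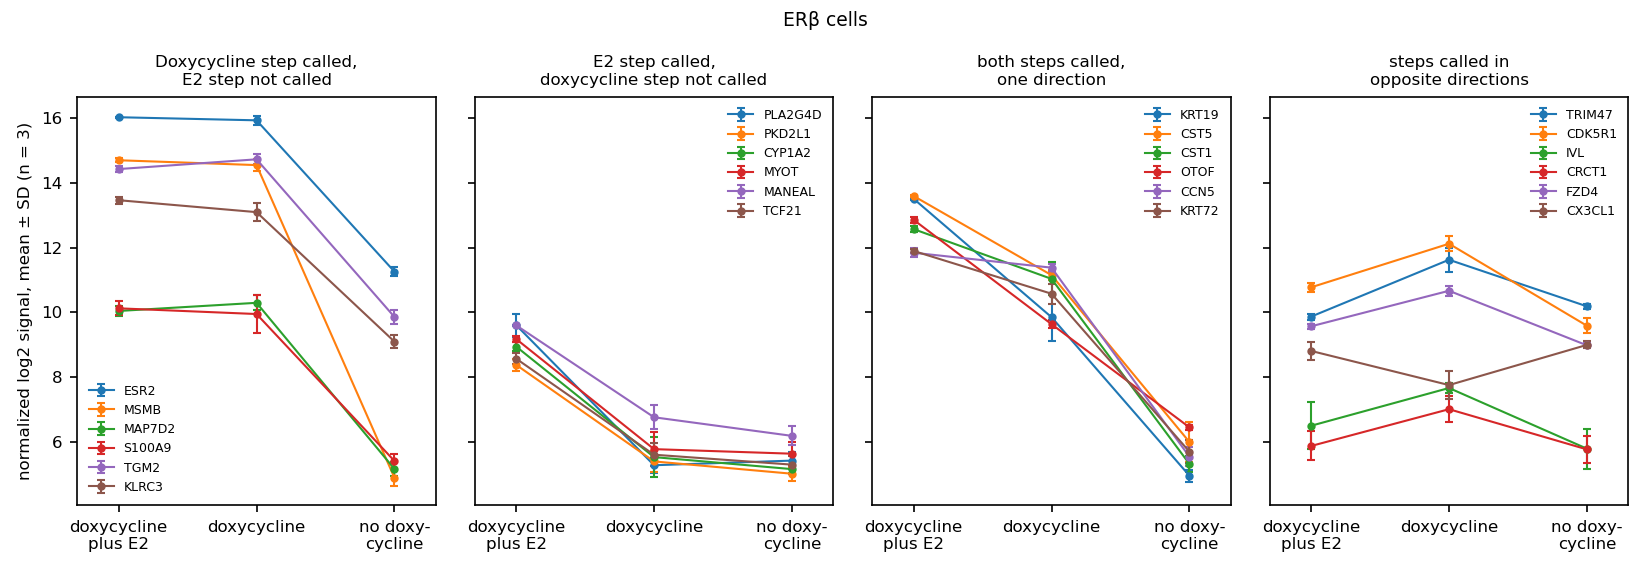
Mean ± SD (n = 3 arrays) of the normalized log2 signal (vertical axis) in ERβ cells with doxycycline plus E2, with doxycycline and without doxycycline, for genes in 4 panels by which step was called. MSMB is level between the groups with doxycycline, PLA2G4D is level between the groups without E2, and CDK5R1 peaks with doxycycline alone.

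The plot of group means shows these 4 patterns by where the lines change. The first changes mainly with doxycycline, the second mainly with E2, the third in both steps, and the fourth turns at doxycycline alone. FZD4 and CDK5R1 are higher with doxycycline alone than in either other group, and CX3CL1 is lower. The panels were chosen by the calls, so the shapes themselves are no finding.

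Genes known to respond to estrogen in breast cells mostly moved up. Of 40 measured members of a list of classical estrogen targets, 24 rose and 2, CXCL12 and STC2, fell, beside 16.0% and 21.8% of all genes. The median change was 1.15 against -0.07 for all genes. Beside KRT19 and CCN5, PDZK1, a scaffold protein of the cell membrane, had 10.31, 10.30 and 9.98 in liganded cells, 6.33, 5.45 and 6.47 in induced cells and 5.07, 5.35 and 4.86 in uninduced cells. Liganded cells stood apart, and the other groups lay near or below the limit of detection. PDZK1 rose at least 13.8-fold, and 1 of the 3 induced arrays detected it.

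KCNK6, a potassium channel, rose 11.9-fold (3.58 ± 0.11), with most of the change in the E2 step at 3.19 ± 0.11. RET, a receptor tyrosine kinase, rose at least 9.46-fold, and SERPINA1, the protease inhibitor alpha-1-antitrypsin, rose 10.6-fold. NRIP1, a corepressor that binds liganded estrogen receptors, stood at 12.93, 12.86 and 12.96 in liganded cells, at 11.53, 11.72 and 11.42 in induced cells and at 11.34, 11.62 and 11.67 in uninduced cells. Only liganded cells were high, and NRIP1 rose 2.59-fold (1.37 ± 0.10). Among ERα cells 31 of the same 40 genes rose (background 12.8%) and 1 fell (background 12.6%), and the median was 1.60.

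Of 24 receptors and cofactors of the estrogen response 6 rose and 6 fell (3 fell without replicate set 1, the first array of every group), beside 16.0% of all genes rising and 21.8% falling. NCOA1, a coactivator of nuclear receptors, rose 3.35-fold, and GPER1, a membrane protein that binds estrogen, rose 8.29-fold. PPARGC1A and PPARGC1B, coactivators of mitochondrial genes, fell by 1.51 ± 0.19 and by 0.95 ± 0.19 on the log2 scale. CYP19A1, which encodes aromatase, the enzyme that makes estrogens, had 10.62, 10.52 and 11.10 in liganded cells, 8.81, 8.91 and 8.69 in induced cells and 6.30, 5.15 and 5.43 in uninduced cells. It rose stepwise, without overlap of the 3 groups, by at least 20.2-fold, and its other probes also rose, one undetected and one detected on 1 array in uninduced cells.

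Keratins and other genes of luminal epithelium were among the largest rises. Of 20 measured, 10 rose and 2 fell (16.0% and 21.8% of all genes), with a median over the list of 0.70. All 10 rises were at least 2-fold, beside 6.04% of all genes. KRT13 and KRT15, keratins of stratified epithelia, rose at least 15.6-fold and at least 12.3-fold. The defining epithelial marker EPCAM was detected on all 6 arrays, with a change of -0.23 that did not pass. KRT8, the usual keratin of simple epithelia, fell by 0.59 on the log2 scale. Of the 20 genes, 8 were undetected in uninduced cells, and for those of them that rose the folds are lower bounds. These 8 passed the detection filter only through arrays of other groups, so the share that rose depends in part on the filter. With only genes detected on all 18 arrays, 2 members rose.

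Markers of the mesenchymal lineage pointed the other way. Of 12 fibroblast and mesenchymal markers 8 fell and 0 rose (21.8% and 16.0% of all genes), with a median of -0.72, among them the cadherin CDH2 (-0.95 ± 0.08), the surface protease FAP (-1.50 ± 0.22) and the receptor PDGFRA (-1.37 ± 0.14). The summed linear signal of the 12 was 81610 to 83787 in liganded cells, 84918 to 86384 in induced cells and 95631 to 103072 in uninduced cells. The difference for VIM was -0.02, which did not pass. Whether these markers have a part in other results was not tested. Blood and endothelial markers gave 1 rise each, of 5 and of 7 measured, and 0 falls.

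Among 14 osteoblast and bone genes 5 fell and 2 rose, beside 21.8% of all genes falling and 16.0% rising. RUNX2, the transcription factor that drives osteoblast differentiation, had 9.34, 9.25 and 9.12 in liganded cells, 9.96, 10.24 and 9.74 in induced cells and 11.06, 11.09 and 11.19 in uninduced cells. The groups were separate, and RUNX2 fell 3.67-fold (-1.87 ± 0.11, adjusted p = 2.68e-09), although a dimmer second probe gave -0.06 and did not pass. PTH1R, the receptor for parathyroid hormone, and SPARC, osteonectin, rose 3.83-fold and 1.58-fold.

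In TGF-beta and BMP signalling 10 of 29 genes rose and 10 fell (16.0% and 21.8% of all genes). The ligands moved apart: TGFB2 and BMP2 fell, while BMP4 rose 5.10-fold, with 12.70, 12.64 and 12.49 in liganded cells, 10.67, 10.72 and 10.25 in induced cells and 10.13, 10.44 and 10.20 in uninduced cells. Only the liganded arrays were high, and the doxycycline step of BMP4 did not pass (0.29 ± 0.16, adjusted p = 0.23). Among the extracellular antagonists, NOG fell and FST, follistatin, which binds activins, rose 9.75-fold by a probe that reached 16.1, near the top of the scale, and 21.3-fold by a second probe at a level of 13.4. TGFBI, a secreted matrix protein induced by TGF-beta, fell by 2.7 ± 0.14 on the log2 scale. Of 20 YAP and TEAD targets 8 rose and 3 fell, and 5 rose without replicate set 1.

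Of 43 growth factors and receptor tyrosine kinases 15 fell and 6 rose, beside 21.8% of all genes falling and 16.0% rising. TGFA, a ligand of the EGF receptor, rose 8.77-fold, while ERBB3 and PDGFRA, receptors for neuregulins and for platelet-derived growth factor, fell 3.15-fold and 2.58-fold. FGFR3 rose 4.21-fold by its brightest probe, but another probe fell by 0.55, so its direction depended on the probe. Leaving out replicate set 1 gave 9 falls in place of 15.

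Enzymes and receptors of lipid mediators were among the groups with most rises, 14 of 27 against 2 falls, with a median of 0.74. Of all genes, 16.0% rose and 21.8% fell. In uninduced cells 6 of the 27 were undetected, and with only genes detected on all 18 arrays 6 members rose. LPAR1, a receptor for lysophosphatidic acid, had 12.04, 11.89 and 11.97 in liganded cells, 7.93, 7.85 and 8.17 in induced cells and 6.42, 7.41 and 6.73 in uninduced cells. All 3 groups were separate, and LPAR1 rose 34.5-fold (5.11 ± 0.18). ENPP2, autotaxin, which makes that same ligand, rose 8.70-fold. SLCO2A1, the prostaglandin transporter, rose 23.5-fold, and the prostaglandin receptor PTGER3 stood at 10.36, 10.39 and 10.56 in liganded cells, at 7.10, 7.06 and 7.65 in induced cells and at 4.95, 4.93 and 5.33 in uninduced cells.

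A group of genes that cells use to answer amino-acid shortage mostly fell. ATF4 is the transcription factor of that answer, and its targets make and import amino acids. Of 34 measured members of the list 25 fell and 0 rose, with a median of -0.76, against 21.8% of all genes falling. The falls included PHGDH, PSAT1 and PSPH, the enzymes of serine synthesis, ASNS, which makes asparagine, and the transporters SLC7A11, SLC7A5 and SLC7A1 (named by role and not by size of change). ATF4 itself did not pass the test.

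TRIB3, a pseudokinase induced in this stress, stood at 11.58, 12.04 and 11.73 in liganded cells, at 12.00, 13.11 and 11.45 in induced cells and at 14.24, 13.73 and 13.89 in uninduced cells. All arrays with doxycycline were below all without it, and the fall was 4.50-fold (-2.17 ± 0.29, adjusted p = 2.95e-05). FGF21, a hormone-like growth factor and ATF4 target, had 6.46, 7.05 and 6.65 in liganded cells, 6.41, 8.45 and 6.15 in induced cells and 9.95, 9.69 and 9.51 in uninduced cells. Liganded cells were at the edge of detection, with 2 of 3 arrays detected, and FGF21 fell 7.98-fold (-3.00 ± 0.42, adjusted p = 3.70e-05). Among the induced arrays, 1 (column 5) was higher than the others for both genes. That array also stood apart for other named genes, with KRT19 at 9.05 against 9.97 and 10.52 and OAS2 at 8.61 against 7.38 and 6.60. It did not for all, as PTGER3 had 7.06 there against 7.10 and 7.65. The doxycycline and E2 steps both use these induced arrays.

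PCK2, a mitochondrial enzyme of carbon metabolism, fell by 1.31 ± 0.16 and CBS, of cysteine synthesis, by 1.27 ± 0.15 on the log2 scale. GDF15, a secreted stress hormone, fell 6.12-fold. In the doxycycline step 28 of the 34 fell (10.7% of all genes), and in the E2 step 1 fell (6.84%) and 1 rose (6.98%). Of the 34, 8 rose and 1 fell in the ERα line (12.8% and 12.6% of all genes). With E2 and ERβ minus the same change with ERα, 24 of the 34 were lower and 0 higher (backgrounds 10.3% and 8.04%).

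Many interferon-stimulated genes, which carry the antiviral state, rose. Of 23 measured 12 rose and 1, IRF1, fell, with a median of 0.56 against 16.0% of all genes rising. ISG15, a ubiquitin-like protein, had 15.17, 14.87 and 14.61 in liganded cells, 14.80, 15.36 and 14.34 in induced cells and 12.05, 12.10 and 12.10 in uninduced cells. The groups with doxycycline overlapped each other and lay above uninduced cells, and ISG15 rose 6.97-fold (2.8 ± 0.22, adjusted p = 1.16e-07). RSAD2, viperin, an enzyme that blocks viral replication, had 10.79, 10.88 and 11.16 in liganded cells, 11.89, 12.19 and 11.84 in induced cells and 8.92, 8.71 and 9.15 in uninduced cells. It was highest with doxycycline alone, and its total rise was 4.04-fold.

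OASL, a relative of the 2-5A synthetases, rose 5.52-fold, ISG20, an exonuclease, 6.77-fold, and IFIT3, which inhibits translation with its partners, 2.97-fold. In the doxycycline step 12 of the 23 rose (9.90% of all genes), and in the E2 step 0 rose (6.98%) and 4 fell (6.84%). Of the 23, 3 rose and 4 fell in the ERα line, beside 12.8% and 12.6% of all genes there. MX1, OAS1 and IFITM1 of the same list did not pass in the ERβ line.

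Promoters of these 2 lists were read to show what the members share outside the expression values. The sequences below are from RefSeq on GRCh38.p14, in a window of 250 bases before to 50 after each gene's start, and 120 bases of it are shown. Capitals mark matches to an interferon response motif, GAAANNGAAA on either strand, overlaps merged, in 3 of the risen genes, or to the amino-acid response motif TGATGNAAT in FGF21.
ISG15: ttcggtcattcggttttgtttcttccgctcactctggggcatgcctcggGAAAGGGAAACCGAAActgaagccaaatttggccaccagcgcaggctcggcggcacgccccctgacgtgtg
IFIT3: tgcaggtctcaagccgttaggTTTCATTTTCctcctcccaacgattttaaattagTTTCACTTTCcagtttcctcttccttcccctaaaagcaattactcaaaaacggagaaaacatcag
RSAD2: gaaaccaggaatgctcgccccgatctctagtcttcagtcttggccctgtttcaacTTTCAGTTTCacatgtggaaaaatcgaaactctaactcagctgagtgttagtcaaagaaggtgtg
FGF21: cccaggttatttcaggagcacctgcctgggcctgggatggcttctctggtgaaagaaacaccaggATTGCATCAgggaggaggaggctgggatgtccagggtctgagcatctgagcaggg
They lie at chr1:1013335-1013454 (ISG15, plus strand), chr10:89327820-89327939 (IFIT3, plus strand), chr2:6877577-6877696 (RSAD2, plus strand) and chr19:48755404-48755523 (FGF21, plus strand).

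The interferon motif was found for 15 of the 19 list members with a window, against 3.57% of 35116 windows and 4.38% of 27305 genes. The matches include members that did not pass the test, such as MX1 and IFITM1, so the motif was not limited to members that rose. The amino-acid motif was found for 2 of 28 ATF4 list members with a window, FGF21 and GARS1, against 1.22% of all genes. The full estrogen response element GGTCANNNTGACC was in 0 of the windows of 42 named genes that rose at least 4-fold, against 0.057% of all windows. Its single arm GGTCA was in 19 of the 42, against 42.6% of all genes. A match is a description of letters in a short window, and such elements often lie far from the start of a gene.

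Cytokines and NF-kB targets moved both ways, 7 of 19 up and 6 down (16.0% and 21.8% of all genes). IL6, the chemokines CCL2 and CCL20 and the receptor TNFRSF11B were among those that fell, and CSF1, a growth factor of macrophages, and IL24 were among those that rose. CCL2 had 7.86, 7.91 and 7.92 in liganded cells, 8.33, 8.98 and 8.09 in induced cells and 10.37, 10.33 and 10.40 in uninduced cells. Arrays with doxycycline were all lower, and CCL2 fell 5.54-fold (-2.47 ± 0.16, adjusted p = 9.21e-09). The spread within uninduced cells was small, with an SD of 0.04.

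Immediate-early genes, the first to answer growth signals, gave 8 rises and 7 falls of 26, beside the same shares of all genes. ZFP36, which destabilizes mRNAs, rose 6.10-fold and SGK1, a serum-induced kinase, rose 4.26-fold by its brightest probe. MYC, a transcription factor that drives growth, stood at 13.11, 13.05 and 12.86 in liganded cells, at 14.24, 14.00 and 14.15 in induced cells and at 14.77, 14.68 and 14.63 in uninduced cells. The 3 groups did not overlap, and MYC fell 3.23-fold (-1.69 ± 0.13, adjusted p = 8.95e-08).

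The cell-cycle lists showed small changes. Of 41 DNA replication genes and E2F targets 12 fell and 2 rose (21.8% and 16.0% of all genes), with a median of -0.17, among them CDC6 and CDT1, which load the replicative helicase, with -0.57 ± 0.13 and -0.68 ± 0.16. With the replicate number as a block 19 fell, and without replicate set 1 only 3 did. MCM7, part of the helicase, fell by its brightest probe (-0.46 ± 0.13), while its other probes gave 0.07 and 0.04. In the ERα line 21 of the same 41 rose and 0 fell (12.8% and 12.6% of all genes), and in the difference between lines 23 were lower and 0 higher (10.3% and 8.04%). Of 40 mitosis and spindle genes 4 rose and 2 fell, and the rises were 10 with the block and 0 without replicate set 1.

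Cholesterol and fatty acid synthesis fell in part. Of 25 genes 11 fell and 2 rose (21.8% and 16.0% of all genes), with a median of -0.24. PMVK of the mevalonate pathway, ACACA, which commits carbon to fatty acids, and SCD, which desaturates them, fell by 0.90 ± 0.12, 0.84 ± 0.15 and 0.77 ± 0.12 on the log2 scale. DHCR7 and LSS, 2 enzymes of late cholesterol synthesis, rose 1.96-fold and 1.78-fold. Without replicate set 1 the falls numbered 4.

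**Figure D3:**
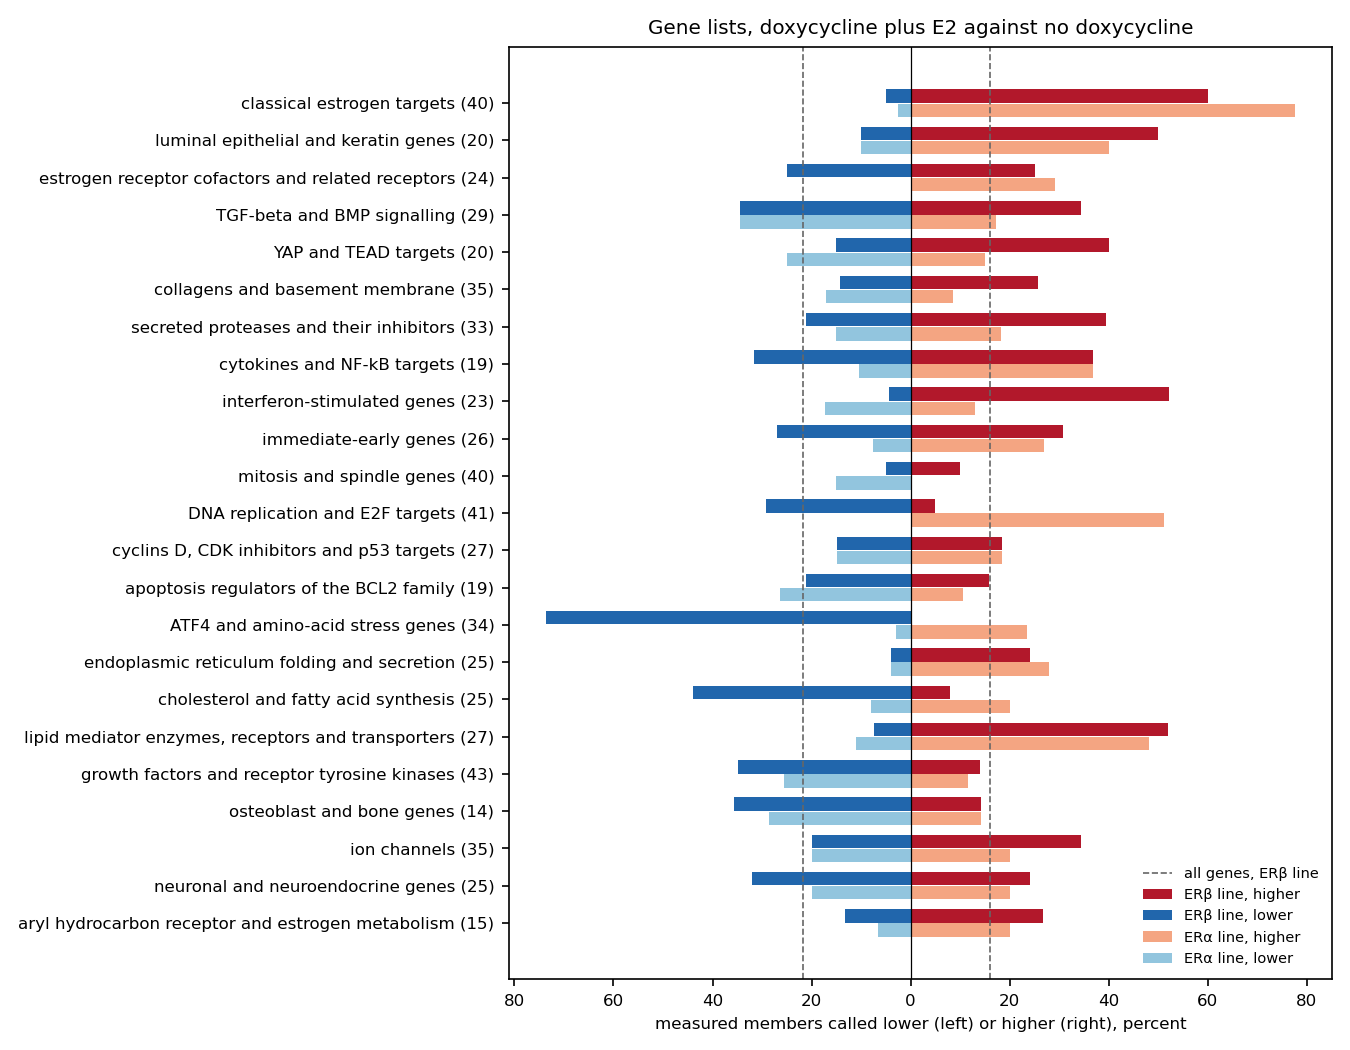
Share of measured members (number in brackets) called lower, to the left, or higher, to the right, in percent (horizontal axis), for 23 gene lists with doxycycline plus E2 against no doxycycline, the ERβ line above the ERα line in each pair. Dashed lines are the shares of all genes in the ERβ line, 16.0% higher and 21.8% lower; the ATF4 list extends far to the left in the ERβ line.

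The plot of list shares sets these counts beside the background. Classical estrogen targets, luminal genes, lipid mediators and interferon-stimulated genes extended furthest above the share of all genes that rose, and ATF4 genes and cholesterol synthesis furthest beyond the share that fell. The lists were compared by counts and medians, with no test of a list as a whole.

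The last comparison asked where the response to liganded ERβ differed from the same contrast in the ERα line, on arrays that the 2 lines do not share. The ERα contrast gave 3430 genes (25.4%), 1724 higher and 1706 lower. Among genes at least 2-fold higher, 381 were called in both lines, which is 46.7% of 816 in the ERβ line and 67.3% of 566 in the ERα line, and 2 of the 816 were at least 2-fold lower in the ERα line. Among genes at least 2-fold lower, 100 were called in both, 21.1% of 475 in the ERβ line and 42.2% of 237 in the ERα line. The difference itself, ERβ minus ERα, passed the test for 2481 genes (18.4%), higher for 1086 and lower for 1395.

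CST5 had the largest fitted difference. In the ERα line it stood at 10.38, 10.93 and 10.99 with doxycycline plus E2 and at 9.43, 9.79 and 9.94 without doxycycline, so its uninduced level was far above that of the ERβ line. The ERα arrays of the 2 groups did not overlap, and the rise there was 1.05 ± 0.24, against 7.61 ± 0.24 in the ERβ line. The difference was 6.56 ± 0.35 (adjusted p = 2.29e-08). Where a group was undetected, the fitted difference depends on levels below detection and its size was not measured. TAS1R1 and PTGER3 were undetected without doxycycline in both lines and passed the test of the difference, and TAS1R1 rose at least 23.7-fold in the ERβ line and at least 1.12-fold in the ERα line. CLEC4M, a lectin of endothelium in liver and lymph node, rose at least 8.0-fold in the ERβ line.

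CLEC4M was undetected on all ERα arrays of the comparison, and in the ERβ line it had 9.44, 9.54 and 9.25 in liganded cells and 4.97, 4.99 and 5.09 in uninduced cells. HAVCR2, an inhibitory receptor of immune cells, was detected on all these arrays of both lines and differed by 3.53 ± 0.23. EPHA4, an ephrin receptor, rose in the ERβ line at least 3.02-fold and fell in the ERα line by 1.5 ± 0.14 on the log2 scale. Its level with doxycycline plus E2 was 8.0 in the ERβ line and 8.06 in the ERα line, and without doxycycline it was 5.73, undetected, in the ERβ line and 9.56 in the ERα line, so the lines stood far apart without doxycycline and close together with doxycycline plus E2.

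On the lower side, FGF21 and ADAMTS20 passed the test of the difference, each with 1 group undetected, ERα cells without doxycycline for FGF21 and liganded ERβ cells for ADAMTS20. The uninduced levels again differed, at 9.72 in the ERβ line and 5.69 in the ERα line for FGF21 and at 9.91 and 6.87 for ADAMTS20. CCL2, BMP2 and MYC fell in the ERβ line and rose in the ERα line, by 1.17 ± 0.16, 2.04 ± 0.15 and 1.66 ± 0.13. MYC had 14.17, 14.14 and 13.79 in ERα cells with doxycycline plus E2 and 12.43, 12.59 and 12.10 in ERα cells without doxycycline. Those ERα groups did not overlap, and the difference between lines for MYC was -3.35 ± 0.19 (adjusted p = 3.59e-08).

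CXCL8, the neutrophil chemokine interleukin 8, had 11.52, 11.33 and 11.63 in liganded ERβ cells and 12.36, 11.80 and 12.18 in uninduced ERβ cells. The groups did not overlap, but the change of -0.62 ± 0.29 did not pass (adjusted p = 0.11). It stayed short of the threshold in 28 of 32 alternative settings and passed in the rest. Leaving out the induced array of column 5, which enters only the spread, was among the settings in which it passed. In the ERα line CXCL8 rose by 2.72 ± 0.29, and the difference was -3.34 ± 0.40 (adjusted p = 4.09e-05). IL6 and INHBE also differed, by -3.46 ± 0.29 and -3.29 ± 0.44. Without doxycycline IL6 stood at 11.09 in the ERβ line and 7.51 in the ERα line, and INHBE at 12.24 and 8.08. With doxycycline plus E2 the levels lay closer, at 7.83 and 7.71 for IL6 and at 9.42 and 8.55 for INHBE.

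**Figure D4:**
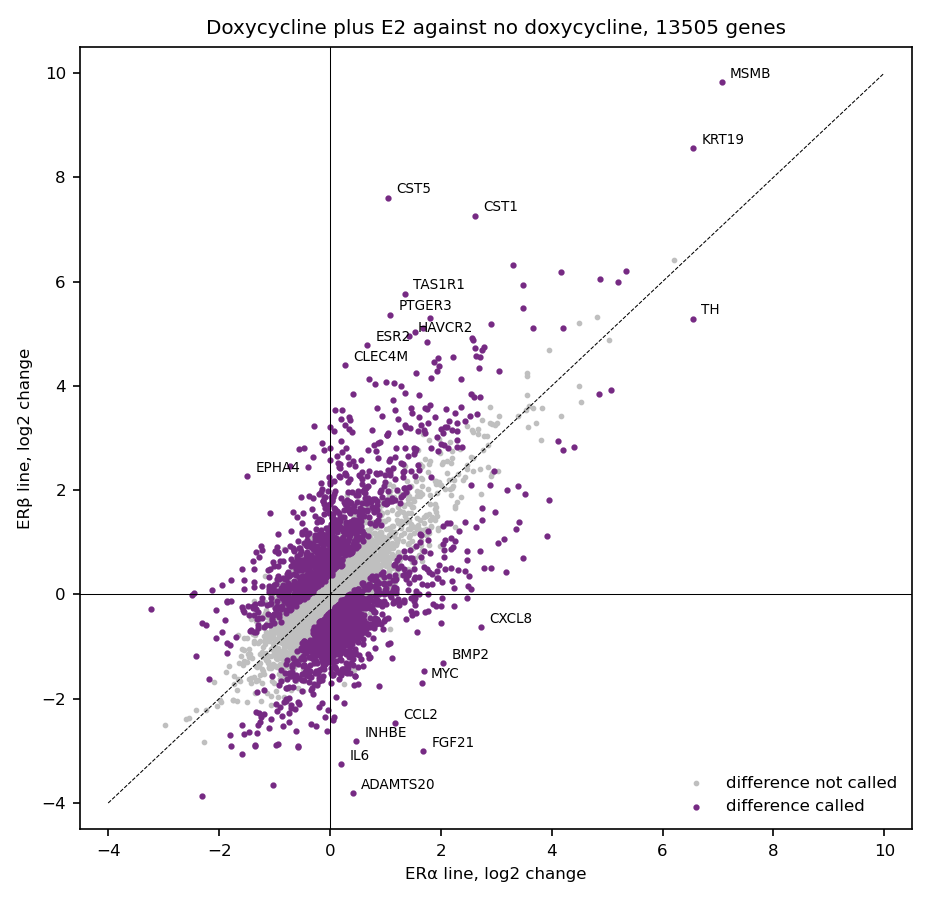
Log2 change with doxycycline plus E2 against no doxycycline in the ERβ line (vertical axis) and in the ERα line (horizontal axis) for 13505 genes, purple where the difference passed the test, with the dashed line marking equal change. MSMB and KRT19 are high in both lines, while CST5 changed by 7.61 in the ERβ line and 1.05 in the ERα line and MYC, BMP2 and CCL2 lie below 0 on the vertical axis and above 0 on the horizontal one.

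The scatter of the 2 lines shows a common upper-right arm, with MSMB, KRT19 and the neuronal enzyme TH, and genes to either side of equal change. TH, tyrosine hydroxylase of dopamine synthesis, rose at least 21.2-fold in the ERβ line and at least 53.6-fold in the ERα line. KCNK6 and OTOF did not differ past the threshold, with -0.09 ± 0.16 and 0.21 ± 0.16.

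**Figure D5:**
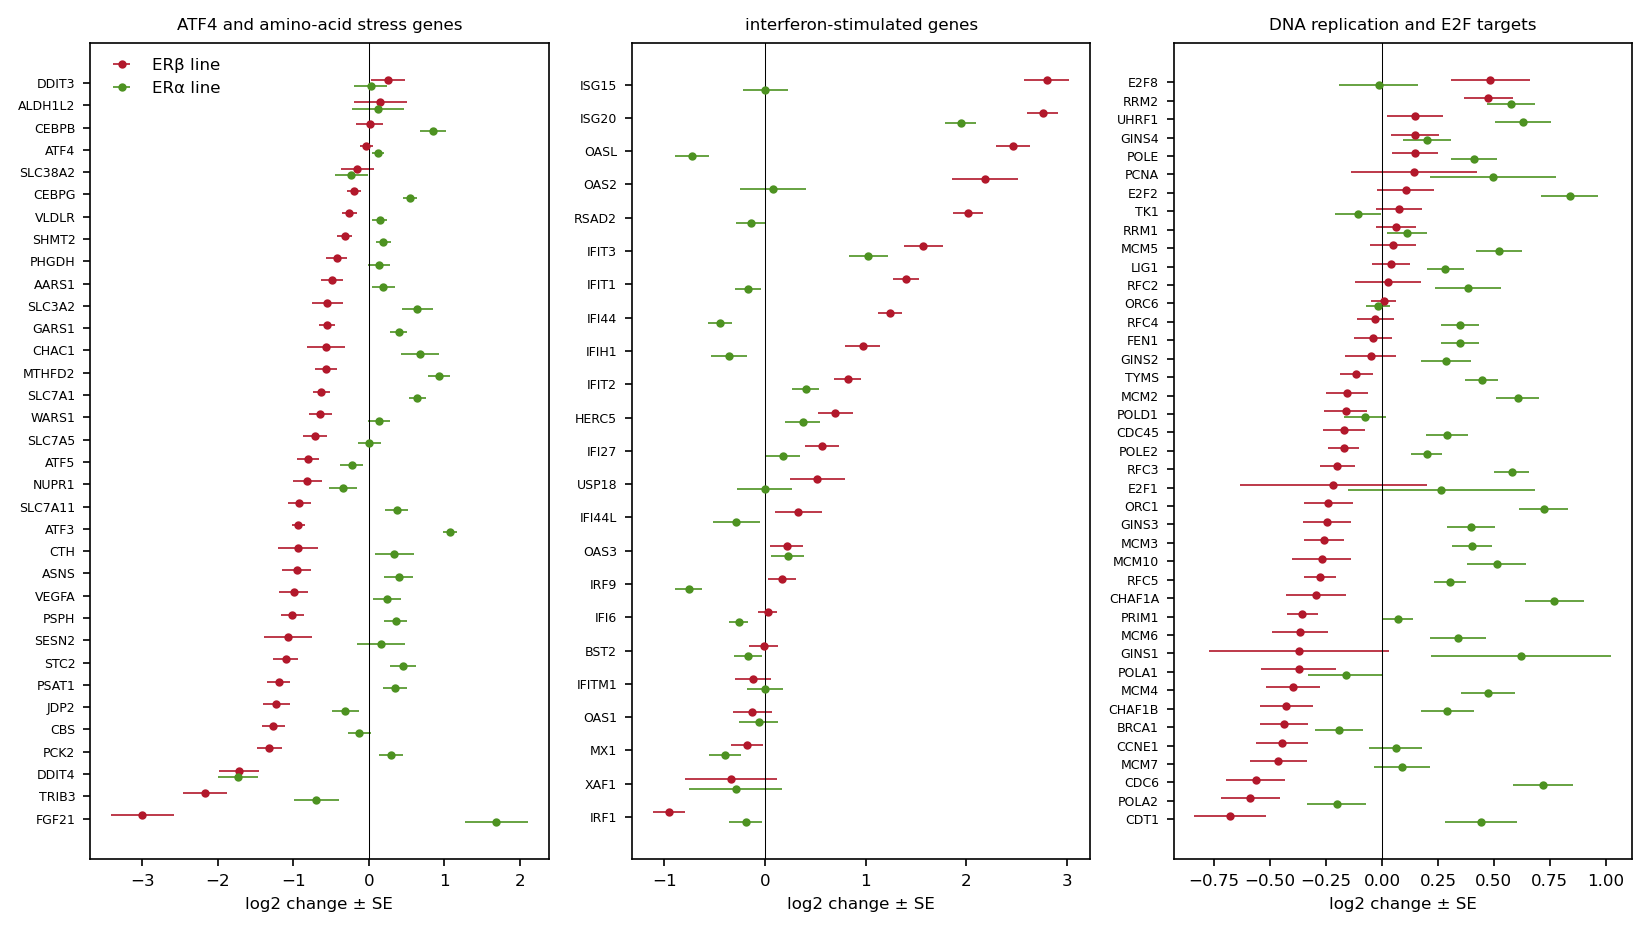
Log2 change ± SE (horizontal axes) with doxycycline plus E2 against no doxycycline for measured members of 3 lists, the ERβ line in red above the ERα line in green for each gene. Of 34 ATF4 genes 25 fell in the ERβ line, of 23 interferon-stimulated genes 12 rose there, and of 41 DNA replication genes 12 fell there while 21 rose in the ERα line.

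The plot of the 3 lists gives each member in both lines. For OASL the lines moved apart, with a rise of 2.46 ± 0.17 in the ERβ line and a change of -0.73 ± 0.17 in the ERα line, and the difference was 3.19 ± 0.24. ISG15 changed by 0.00 ± 0.22 in the ERα line, and the difference was 2.8 ± 0.32. CDC6 fell in the ERβ line and rose by 0.72 ± 0.13 in the ERα line, with a difference of -1.28 ± 0.19. DDIT4, an inhibitor of mTORC1 on the ATF4 list, fell in both, by 1.71 ± 0.27 in the ERβ line and by 1.73 ± 0.27 in the ERα line on the log2 scale, and the difference of 0.02 ± 0.38 did not pass (adjusted p = 0.99).

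Doxycycline alone in the ERα line, a comparison added after the others were seen, changed 2 genes (0.0148%). ATF3, a stress-induced transcription factor, was higher by 1.04 ± 0.09 (1 gene, 0.00740%) and FYN, a kinase of the SRC family, lower with -1.35 ± 0.12 (1 gene, 0.00740%). An unadjusted p below 0.05 in limma was found for 705 of 13505 genes, close to the share that this threshold passes where no gene differs. The ERβ counterpart, 1337 rises and 1439 falls, is the doxycycline step given above. Whether the level of each receptor has a part in this was not tested, since the ESR1 probe was near background in the ERα line.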

How the data were processed

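Gene expression was measured in 18 samples of U2OS cells in 6 groups of 3, taken from the labels. The authors deposited a non-normalized table of probe intensity with a detection p-value per probe and array, per the file headers. A second deposited table holds intensity values already processed by the authors; these are linear, and the median per column ran from 170.4 to 173.4. The tool lumi is listed in the submitters' processing notes, without further steps, and that table served only as an alternative. Per the file headers, columns 4 to 9 of each line are known by group alone.

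From the intensities, neqc in limma 3.58.1 (R 4.3.3) subtracted background by normexp with the detection p-values, normalized by quantiles and took log2 with an offset of 16. Of 48803 probes (1 repeated line dropped), 27578 had 1 gene symbol, 13 several and 21212 none, and those without exactly 1 are not named. A probe was retained when its detection p was under 0.01 on 3 or more of the 18 arrays, and the brightest retained probe stood for its gene, giving 13505 genes. Of 4899 further kept probes, 18 were called opposite to the chosen one, FGFR3's among the named genes. Fold bounds for undetected genes use the lowest detected signal of each array.

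The 6 group means were fitted jointly with lmFit and eBayes (12 residual and 2.66 prior degrees of freedom), 2-sided, with Benjamini-Hochberg adjustment over genes. The fit was tested on simulated data. Named genes were ESR1 and ESR2, the 15 largest rises and falls without overlap of arrays, up to 6 called members of each of 28 lists, the 8 largest differences each way between lines, and 6 genes of each step pattern, passing over symbols of uncharacterized genes. The members, lists and rules were chosen with earlier results of these data known. No pair of arrays was identical.

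For fits with a replicate block, columns 4 to 9 were numbered after whichever processed column in the group matched best by rank. Deviations of same-numbered liganded and uninduced ERβ arrays correlated at 0.158 to 0.555 over 3 pairs, so the numbers were taken to pair the arrays; in the authors' processed values the same correlations were -0.19 to -0.14. Alternatives covered background, scaling, filter, probe choice, the authors' values, the block, array weights, the arrays fitted and each array or replicate set left out.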

Additional observations from a re-analysis of the deposited data

Results flagged for a closer look

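The change with doxycycline plus E2 against no doxycycline was compared between the lines by the test of the difference in limma, and the 8 largest fitted differences each way are given first. Other named genes pass that test too. All values here are ERβ line minus ERα line on the log2 scale, and those of the genes on the higher side were 6.56 for CST5, 4.66 for CST1, 4.42 for TAS1R1, 4.28 for PTGER3, 4.13 for CLEC4M, 4.10 for ESR2, 3.77 for EPHA4 and 3.53 for HAVCR2. Those on the lower side were -4.68 for FGF21, -4.23 for ADAMTS20, -3.64 for CCL2, -3.46 for IL6, -3.35 for BMP2, -3.35 for MYC, -3.34 for CXCL8 and -3.29 for INHBE. A group was undetected on all its arrays for CST1, TAS1R1, PTGER3, CLEC4M, ESR2, EPHA4, FGF21 and ADAMTS20, so the sizes and their order rest there on levels below detection. The ESR2 value follows from the vector of the ERβ line. For CST5, EPHA4, FGF21, ADAMTS20, IL6 and INHBE the levels without doxycycline already differed between the lines, as given in the report. They also lay apart for MYC, at 14.69 in the ERβ line and 12.37 in the ERα line, and for CCL2, at 10.37 and 8.78. CST1 stood at 5.31, undetected, in the ERβ line and at 6.78 in the ERα line.

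A further 7 genes were singled out because they were called in opposite directions in the 2 lines. OASL, GADD45B and FZD4 were higher in the ERβ line and lower in the ERα line, with differences of 3.19, 1.15 and 0.96. PPARGC1B, GADD45A, CDC6 and ELOVL6 were lower in the ERβ line and higher in the ERα line, with differences of -2.0, -1.83, -1.28 and -0.88. The first 2 of these 4 are a coactivator of mitochondrial genes and a DNA damage response protein.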

How the results depend on the processing

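The count of genes in the ERβ total remained within 1.5 times of 5106 in every alternative except leaving out replicate set 1, whose range with the other left-out arrays was 3007 to 5280. It was 6904 with the authors' values, 6141 with the replicate block, 5809 with array weights and 4630 with only the compared arrays. The ranges over left-out arrays were 1017 to 2942 for the doxycycline step, 653 to 1975 for the E2 step, 1660 to 3569 for the ERα total and 905 to 2636 for the difference between lines, each lowest without replicate set 1. With the authors' values these 4 were 4660, 3181, 5274 and 4294. Array weights gave 4177 and 3683 for the doxycycline and E2 steps, and only the compared arrays gave 1548 and 1070. The cause of these shifts was not tested, and the settings that leave out arrays also fit fewer arrays. The share of called genes that rose was 42.38%, and 49.99% under cyclic loess. Of 184 named genes, 146 kept direction and side of the threshold in every setting, 34 lost the threshold in at least 1 and 0 reversed. CDC6 lost it without replicate set 2 and CDT1 and COL1A1 without set 1. With only genes detected on all 18 arrays, luminal rises numbered 2 in place of 10, since undetected members leave. Rises then numbered 6 in place of 14 for lipid mediators and 5 in place of 12 for ion channels. They numbered 17 in place of 24 for classical estrogen targets and 9 in place of 12 for interferon-stimulated genes. With the replicate block, falls of collagens numbered 8 in place of 5, of mitosis genes 4 in place of 2, and rises of respiratory chain genes 3 in place of 1 and of endothelial markers 2 in place of 1; beyond these and the cell-cycle counts in the report, no count moved by over 1.5 times under the block. Changes below a level of 6.08 to 6.52 could not be seen.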

Other observations

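Other groups of genes are given between liganded and uninduced ERβ cells, beside 16.0% of all genes rising and 21.8% falling. Of 35 ion channels 12 rose and 7 fell, and 4 fell without the liganded array of column 9 and also without replicate set 1 or 2. ANO1, a calcium-activated chloride channel, stood at 11.65, 11.52 and 11.92 in liganded cells, at 10.09, 9.41 and 10.62 in induced cells and at 6.24, 6.53 and 6.78 in uninduced cells. Its groups did not overlap, and it rose 36.3-fold (5.18 ± 0.24). PKD2L1, a cation channel of sour-sensing cells, rose at least 3.91-fold and was undetected on the ERα arrays of the same contrast. KCNJ2, an inward-rectifying potassium channel, fell at least 3.53-fold. Of 25 neuronal and neuroendocrine genes 6 rose and 8 fell, with TH and NEFH, a heavy neurofilament, on one side and the neuronal tubulin TUBB3 (-1.31 ± 0.17) and MAP2 (-1.65 ± 0.32) on the other.

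Secreted proteases and their inhibitors rose for 13 and fell for 7 of 33 (8 rises without the uninduced array of column 3, and 4 falls without replicate set 1), and TIMP3, an inhibitor of metalloproteases, rose at least 8.33-fold while MMP7 fell by 1.61 ± 0.18 on the log2 scale. Of 35 collagens and basement membrane genes 9 rose and 5 fell (2 without replicate set 1). COL18A1 rose at least 18.7-fold by its brightest probe, whereas a second probe near background gave -0.52 (adjusted p = 0.35). Of 19 BCL2 family genes 3 rose (1 without replicate set 1) and 4 fell, with BMF, a pro-apoptotic member, lower by 2.40 ± 0.16 on the log2 scale in the ERβ line and a change of -2.60 ± 0.16 in the ERα line. Cyclins, CDK inhibitors and p53 targets gave 5 rises and 4 falls of 27, genes of estrogen metabolism and the aryl hydrocarbon receptor 4 and 2 of 15, and genes of endoplasmic reticulum folding 6 and 1 of 25, the rises falling to 2 without replicate set 1. HSPA5, the chaperone BiP, rose by 0.84 ± 0.08. Of the housekeeping lists, 1 of 29 mitochondrial respiratory chain genes rose and 3 fell (0 falls without replicate set 1), and 0 of 31 ribosomal protein genes rose and 6 fell, with 2 falls without replicate set 1.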
